A study of Mus musculus with 7 samples.

Results

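The genes described here are those of cholesterol synthesis and the targets of SREBP2, the transcription factor that drives this pathway, in mouse hepatocytes given the microRNA miR-709. Members were taken by symbol from a list of 31 genes, by a rule that uses no measured value, although the list was drawn up with earlier results of these data known. Of these, 28 had a probe set that carried their symbol alone and were measured, among 19938 genes on the arrays. A gene with several probe sets was represented by the brightest. *Acat2*, *Soat1* and *Soat2* were not analysed here. *Sc4mol* is an older name of *Msmo1* and was read under the newer one.

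Primary hepatocytes of male C57BL/6J mice were freed with collagenase and enriched on a Percoll gradient. All cultures were transfected, the treated ones with 1 µg of a miR-709 mimic and the controls with 1 µg of Cel-239b, a worm microRNA used as control. Total RNA was taken 24 h later and hybridised to Affymetrix Mouse Gene 1.0 ST arrays, 1 array per replicate. There were 4 miR-709 arrays, lettered A to D, and 3 Cel-239b arrays, lettered B to D. No age was given for these mice, and whether the replicates were separate mice or isolations is not stated. The p-values therefore rest on array-to-array spread alone, which may be technical. Values are log2 signals, which can be compared between arrays for 1 gene but not between genes. A log2 fold change is the miR-709 mean minus the Cel-239b mean. Genes were called at an adjusted p under 0.05 from limma, with Benjamini-Hochberg adjustment over all 19938 genes. Precision is limited by having 7 arrays, with a standard error of 0.0758 for the median gene.

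Hepatocytes make cholesterol from acetyl-CoA by the mevalonate pathway, whose products are first isoprenoids and then squalene, lanosterol and cholesterol. SREBP2 is made as a precursor in the membrane of the endoplasmic reticulum. It is escorted to the Golgi by SCAP when sterols are low and is held back by INSIG proteins when sterols are high. Cleaved SREBP2 enters the nucleus and binds sterol regulatory elements in the promoters of most genes of the pathway, together with NF-Y, a factor that binds the CCAAT box. The liver is a main site of this synthesis and of the clearance of cholesterol from blood.

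Of the 28 members, *Hsd17b7* was lower and *Insig2* was higher with miR-709, and the other 26 were not called. *Hsd17b7*, a reductase of the late sterol pathway, was 1.30-fold lower, and *Insig2*, which retains SREBP2 in the endoplasmic reticulum, was 1.31-fold higher. The members called made up 7.14% of those measured, while 3.28% of all genes were called, 1.47% lower and 1.81% higher. The log2 fold change was below 0 in 20 members and above 0 in 8, with a median of -0.03 beside 0.01 over all genes tested. Of all genes, 45.1% were below 0. At an unadjusted p under 0.05, 8 members were lower and 3 were higher, while over all genes 5.83% were lower and 9.15% were higher. The methods' t-test, also adjusted over all genes, called 0 members, and it called 1.13% of all genes. RNA was from whole cultures, in which fewer cells of a type and less RNA per cell cannot be told apart.

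**Figure D1:**
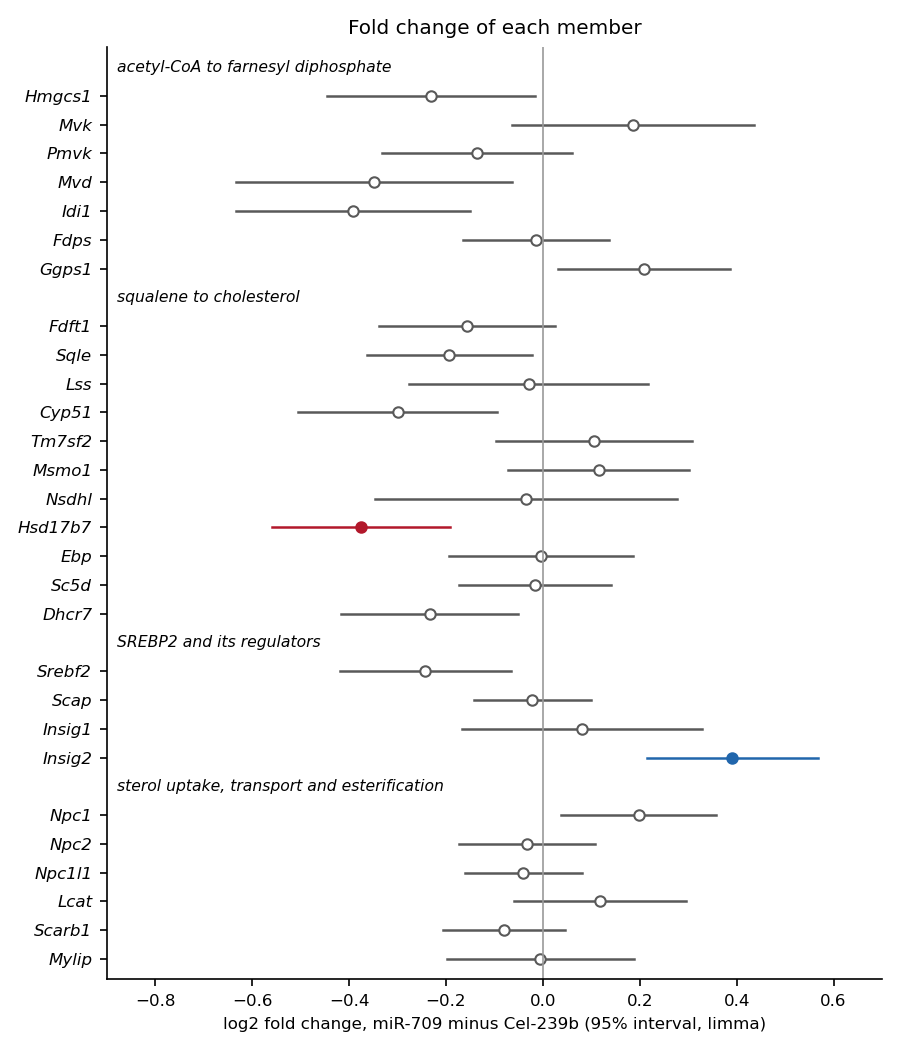
Log2 fold change of each of the 28 measured members, miR-709 mean minus Cel-239b mean, grouped by role, with bars for the 95% interval from limma and filled points for members called. *Hsd17b7* (-0.38) and *Insig2* (0.39) were the members called, and most enzymes lie to the left of 0.

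Groups of arrays that do not overlap give a second view of the same values. All 4 miR-709 arrays lay below all 3 Cel-239b arrays in 6 members (21.4%), while this held for 4.91% of all genes (12.3% in either direction). These were *Mvd*, *Idi1*, *Cyp51*, *Hsd17b7*, *Srebf2* and *Scarb1*. All 4 miR-709 arrays lay above the controls in *Insig2* and *Npc1* (7.14% of the members), and in 7.44% of all genes.

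Promoter sequences of the members were read from RefSeq (GRCm38.p6) in windows from 250 bases before to 50 bases after each start site. The search covered the sterol element form TCACNCCAC and the NF-Y box CCAAT on both strands, and neither word contains the other. Windows were found for 23 of the 28 members. CCAAT was present in at least 1 window of 22 of these 23 genes (95.7%), with *Scap* the exception, while it was present in 41.7% of the 15614 tested genes with a window and in 37.4% of all 32851 windows. Genes with several windows have more chances to hold a match. Among those with a single window, 19 of 19 members and 38.7% of tested genes held CCAAT. Of tested genes with a mean log2 signal over 6, 42.5% held it. TCACNCCAC was found in 1 of the 23 members (4.3%), *Hmgcs1*, and in 1.4% of tested genes. Other forms of the sterol element were not searched. These matches describe letters in a window and say nothing of binding in these cells.

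Stretches nearest the start site that hold such matches are given 5′ to 3′ on the strand of the gene for the members whose arrays did not overlap and that have a window, and for *Hmgcs1*, the member with a match to TCACNCCAC. In *Hsd17b7* and *Hmgcs1* further CCAAT matches lie outside the printed bases. *Insig2* has 3 annotated windows, and the one with most matches is shown. Capitals mark CCAAT or its other strand ATTGG, and in *Hmgcs1* also TCACNCCAC. The stretches lie at chr1:169969206-169969290 (minus strand) for *Hsd17b7*, chr1:121332602-121332737 (minus) for *Insig2*, chr13:8885549-8885605 (plus) for *Idi1* and chr13:119690173-119690322 (plus) for *Hmgcs1*. Those of *Cyp51*, *Mvd* and *Srebf2* lie at chr5:4104710-4104738 (minus), chr8:122443433-122443494 (minus) and chr15:82147122-82147150 (plus). All are upstream of the start site, in the promoter of the named gene.
Hsd17b7: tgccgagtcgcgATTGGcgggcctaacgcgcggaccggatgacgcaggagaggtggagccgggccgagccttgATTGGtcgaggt
Insig2: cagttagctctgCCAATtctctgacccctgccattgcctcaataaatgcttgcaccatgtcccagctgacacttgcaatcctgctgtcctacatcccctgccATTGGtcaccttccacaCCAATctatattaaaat
Idi1: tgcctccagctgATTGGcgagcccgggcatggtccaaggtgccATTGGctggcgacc
Hmgcs1: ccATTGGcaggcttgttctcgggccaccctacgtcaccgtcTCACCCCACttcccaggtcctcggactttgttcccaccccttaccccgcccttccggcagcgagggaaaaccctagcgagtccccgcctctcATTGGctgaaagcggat
Cyp51: cgctgtccgccaCCAATctggtcctgaga
Mvd: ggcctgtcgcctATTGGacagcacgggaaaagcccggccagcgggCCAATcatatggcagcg
Srebf2: cttcgcgcgccgATTGGctaatgcaagcc

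**Figure D2:**
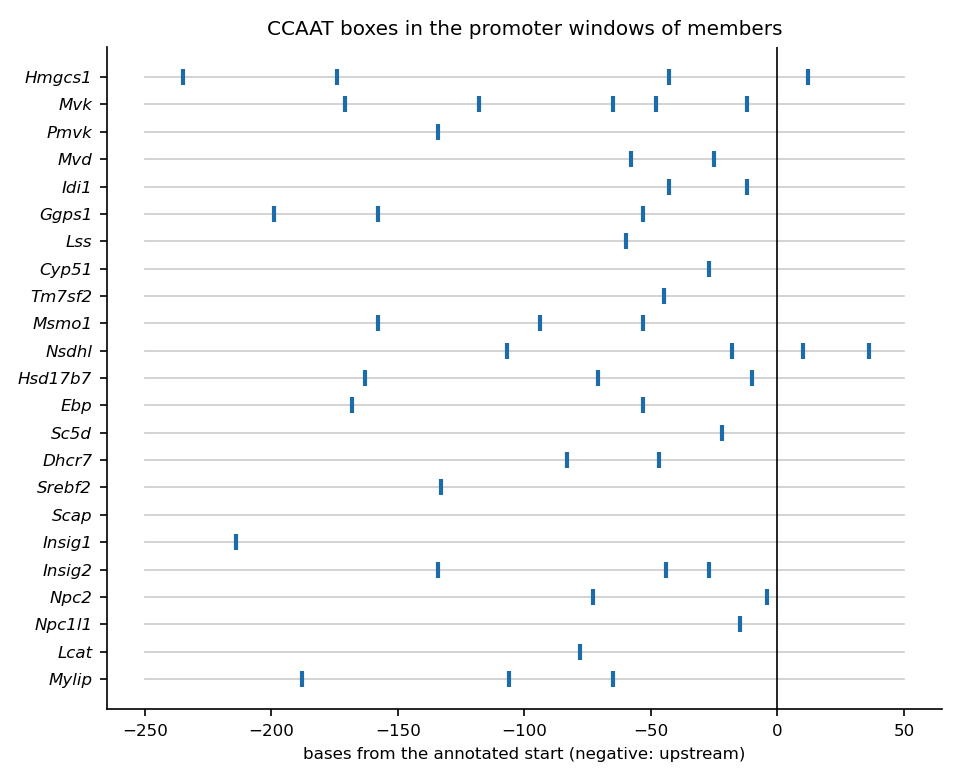
Positions of CCAAT, on either strand, in bases from the start site (0) in the promoter windows of the members, with 1 line per gene; for a gene with several windows, the one with most matches is drawn. Of 23 genes with a window, *Scap* is the one without a match.

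The first 7 measured enzymes lead from acetyl-CoA to farnesyl and geranylgeranyl diphosphate. None was called by limma, 5 of 7 had a log2 fold change below 0, and the median was -0.14. At an unadjusted p under 0.05, 3 were lower and 1 was higher (5.83% and 9.15% of all genes), and the methods' t-test called 0. *Idi1*, the isomerase that makes dimethylallyl diphosphate, had log2 signals of 10.16, 9.94 and 10.11 on Cel-239b arrays B to D and of 9.85, 9.83, 9.44 and 9.59 on miR-709 arrays A to D. The groups did not overlap, and miR-709 arrays C and D were the lowest. The log2 fold change was -0.39 (standard error 0.107, 95% interval -0.63 to -0.15, limma adjusted p = 0.101).

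A second, slightly dimmer probe set of *Idi1* gave 10.05, 9.99 and 10.04 with Cel-239b and 9.81, 9.70, 9.43 and 9.49 with miR-709. Its groups were apart as well, with the same arrays lowest. Its log2 fold change was -0.42 (standard error 0.0928), and it was called lower in the limma fit over all probe sets (adjusted p = 0.0462). *Idi1* thus stood on one side of the threshold by its brighter probe set and on the other by its dimmer one.

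*Mvd*, the decarboxylase that makes isopentenyl diphosphate, read 7.81, 7.94 and 8.06 with Cel-239b and 7.78, 7.78, 7.26 and 7.53 with miR-709. Arrays A and B lay just below the lowest control, whereas C was far below it. Its log2 fold change was -0.35 (standard error 0.127, limma adjusted p = 0.224).

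*Hmgcs1*, the synthase that makes HMG-CoA, read 11.14, 10.90 and 11.12 with Cel-239b and 10.95, 10.91, 10.61 and 10.82 with miR-709. The groups overlapped, since control C lay below miR-709 arrays A and B. On the log2 scale the difference of the means was -0.23 (standard error 0.0951, limma adjusted p = 0.291). *Ggps1*, which makes the geranylgeranyl diphosphate used to anchor proteins in membranes, went the other way, at 6.18, 6.25 and 6.15 with Cel-239b and 6.44, 6.56, 6.24 and 6.37 with miR-709. Only array C of miR-709 lay within the controls. The log2 fold change was 0.21 (standard error 0.0786, limma adjusted p = 0.243).

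The remaining enzymes of this stretch had overlapping arrays. *Mvk*, the mevalonate kinase, had a log2 fold change of 0.19, and *Pmvk*, the next kinase, of -0.14. *Fdps*, which makes farnesyl diphosphate, had a log2 fold change of -0.01 with a 95% interval of -0.16 to 0.14.

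**Figure D3:**
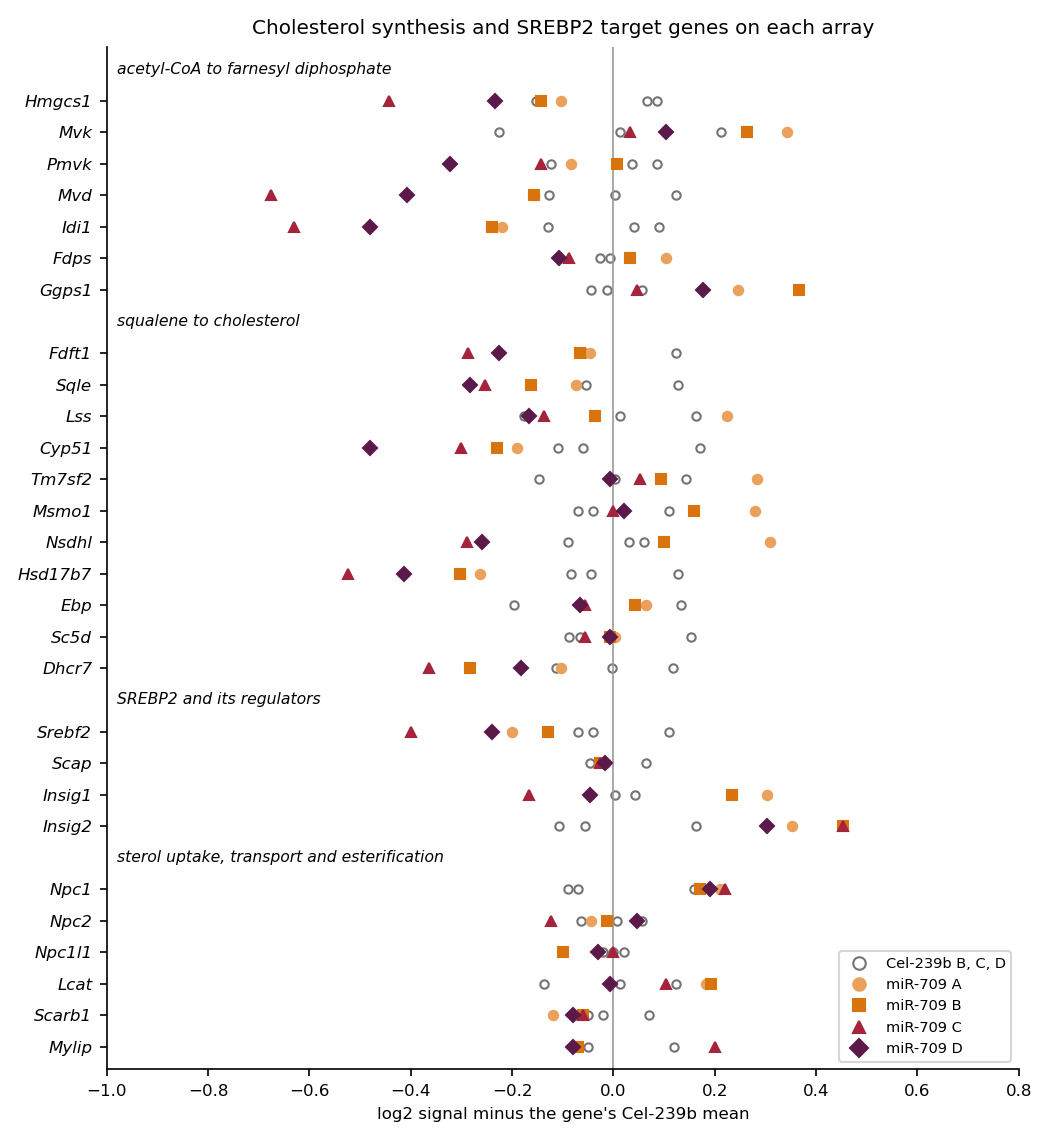
Log2 signal of each of the 28 members on each of the 7 arrays, minus the gene's mean over the 3 Cel-239b arrays, with members in order of role; open circles are Cel-239b arrays, and filled circles, squares, triangles and diamonds are miR-709 arrays A to D. The triangles and diamonds of arrays C and D lie farthest left in most enzymes. Below their lowest control were 4, 6, 11 and 11 of 18 enzymes on arrays A to D. Of all genes, 20.7%, 21.0%, 19.8% and 21.4% were.

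In the sterol stretch, from squalene to cholesterol, 1 of 11 measured enzymes was called lower and 0 were called higher. Values were below 0 in 9 of 11, with a median of -0.04. At an unadjusted p under 0.05, 4 were lower and 0 were higher. Over all genes, 1.47% were called lower, and at the unadjusted threshold 5.83% were lower and 9.15% higher. *Hsd17b7*, the 3-ketosteroid reductase that acts in the removal of the methyl groups at carbon 4 of the sterol, read 9.95, 9.91 and 10.12 with Cel-239b and 9.73, 9.69, 9.47 and 9.58 with miR-709. The highest miR-709 array lay below the lowest control. The means were 9.99 ± 0.11 (SD, n = 3) and 9.62 ± 0.12 (SD, n = 4), and the log2 fold change was -0.38 (standard error 0.0814, 95% interval -0.56 to -0.19, limma adjusted p = 0.0397).

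The direction of *Hsd17b7* held in all 21 alternatives, but it was called in 9 of them, with adjusted p between 0.0147 and 0.262. The call was lost without any 1 of the 7 arrays. The limma adjusted p was 0.103, 0.0883 and 0.106 without Cel-239b B, C and D, and it was 0.0525, 0.0768, 0.0999 and 0.123 without miR-709 A, B, C and D. With array weights it was 0.0535, and by the methods' t-test it was 0.189.

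*Cyp51*, the demethylase that acts on lanosterol, read 10.02, 9.74 and 9.79 with Cel-239b and 9.66, 9.62, 9.55 and 9.37 with miR-709. All miR-709 arrays lay below all controls, with D lowest. Its log2 fold change was -0.30 (standard error 0.0915, limma adjusted p = 0.144). *Dhcr7*, the reductase that turns 7-dehydrocholesterol into cholesterol, read 8.32, 8.21 and 8.44 with Cel-239b and 8.22, 8.04, 7.96 and 8.14 with miR-709. Only array A overlapped the controls. On the log2 scale the difference of the means was -0.23 (standard error 0.0811, limma adjusted p = 0.204).

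*Sqle*, the squalene epoxidase and a rate-limiting step of the sterol stretch, read 10.31, 10.13 and 10.11 with Cel-239b and 10.11, 10.02, 9.93 and 9.90 with miR-709. Array A equalled the lowest control and the other miR-709 arrays lay below it. The log2 fold change was -0.19 (standard error 0.0755, limma adjusted p = 0.261). *Fdft1*, the squalene synthase, had a log2 fold change of -0.16 (limma adjusted p = 0.410), and of -0.17 by a second probe set.

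Some members that were not called were uneven among the miR-709 arrays. *Nsdhl*, the dehydrogenase that acts just before *Hsd17b7*, read 9.47, 9.35 and 9.50 with Cel-239b and 9.75, 9.54, 9.15 and 9.18 with miR-709. Arrays A and B lay above every control and arrays C and D below every control. A log2 fold change of -0.04 (limma adjusted p = 0.940) thus averages over arrays on both sides of the controls. *Nsdhl* was singled out after its values were seen. It had a log2 fold change of 0.21 without miR-709 C and D and of -0.28 without A and B.

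The other enzymes of the stretch had overlapping arrays. *Msmo1*, the sterol C4 methyl oxidase, had a log2 fold change of 0.12, and *Tm7sf2*, a sterol C14 reductase, of 0.11. *Lss*, the lanosterol synthase, had a value of -0.03, and *Sc5d*, the sterol C5 desaturase, of -0.02, with 95% intervals of -0.28 to 0.22 and -0.17 to 0.14. For *Ebp*, the sterol isomerase, the 95% interval ran from -0.19 to 0.19.

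**Figure D4:**
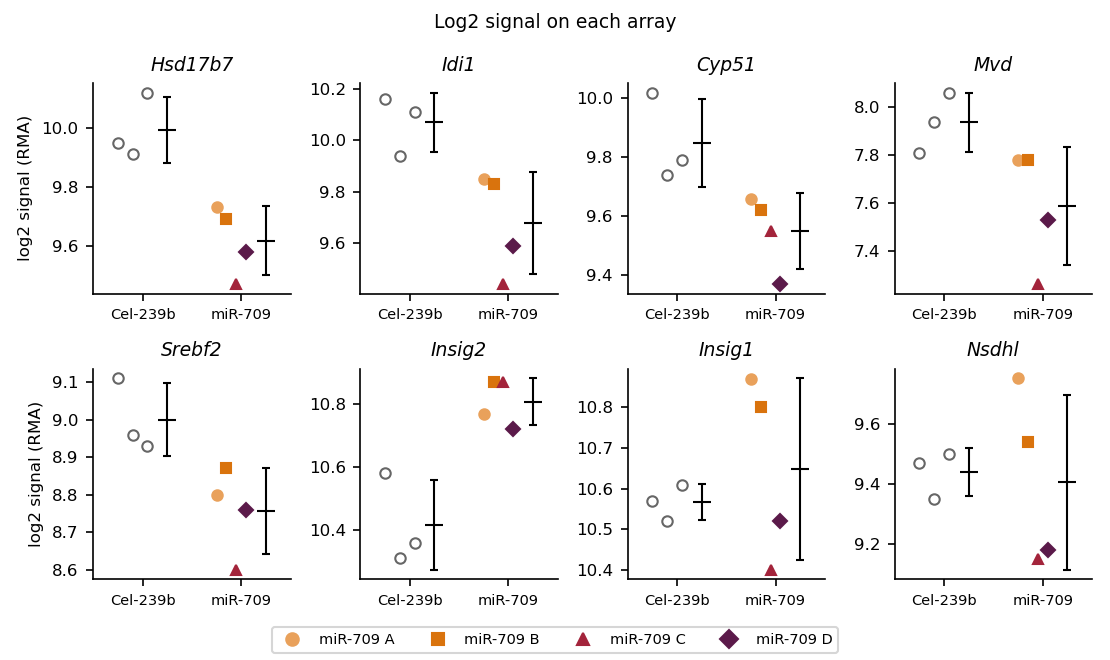
Log2 signals of 8 genes on each of the 3 Cel-239b and 4 miR-709 arrays, 1 point per array (open circles, Cel-239b), with a line and bar for each group's mean ± SD; the axes do not start at 0. *Hsd17b7* and *Insig2* separate by treatment, and *Nsdhl* and *Insig1* spread more among miR-709 arrays than among controls.

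Of SREBP2 and its regulators, 1 of 4 was called, beside 3.28% of all genes. *Insig2*, one of the pair of retention proteins, read 10.58, 10.31 and 10.36 with Cel-239b and 10.77, 10.87, 10.87 and 10.72 with miR-709. Every miR-709 array lay above every control. The means were 10.42 ± 0.14 (SD, n = 3) and 10.81 ± 0.08 (SD, n = 4), and the log2 fold change was 0.39 (standard error 0.0783, 95% interval 0.21 to 0.57, limma adjusted p = 0.0279).

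*Insig2* was higher in all 21 alternatives and called in 11 of them, with adjusted p between 0.0100 and 0.187. Without Cel-239b B the limma adjusted p was 0.0185. The call was lost without Cel-239b C or D (limma adjusted p = 0.127 and 0.0872) and without miR-709 A, B, C or D (0.0679, 0.0885, 0.0926 and 0.0544). By the methods' t-test the adjusted p was 0.152. The log2 fold change was nearly the same without miR-709 C and D (0.40) as without A and B (0.38).

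*Insig1*, the other retention protein and itself a classic SREBP2 target, read 10.57, 10.52 and 10.61 with Cel-239b and 10.87, 10.80, 10.40 and 10.52 with miR-709. Arrays A and B lay above the controls, C lay below them and D equalled the lowest. Its log2 fold change was 0.08 (standard error 0.110, limma adjusted p = 0.796), and it was 0.27 without C and D and -0.11 without A and B.

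*Srebf2*, the gene of SREBP2, read 9.11, 8.96 and 8.93 with Cel-239b and 8.80, 8.87, 8.60 and 8.76 with miR-709. The groups did not overlap, although array B lay close below the lowest control. On the log2 scale the difference of the means was -0.24 (standard error 0.0782, limma adjusted p = 0.167). *Scap*, the escort, was steady at 8.54, 8.57 and 8.65 with Cel-239b and 8.57, 8.56, 8.56 and 8.57 with miR-709. The difference on the log2 scale was -0.02 with a 95% interval of -0.14 to 0.10. These values are transcript levels, and SREBP2 cleavage was not measured.

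Among the 6 measured genes of sterol uptake, transport and esterification, limma called 0 and the methods' t-test called 0. At an unadjusted p under 0.05, 1 was higher, beside 9.15% of all genes. *Npc1*, which exports cholesterol from lysosomes, read 9.92, 9.69 and 9.67 with Cel-239b and 9.97, 9.93, 9.98 and 9.95 with miR-709. The groups were only just apart. The log2 fold change was 0.20 (standard error 0.0707, limma adjusted p = 0.219). *Scarb1*, the receptor for high-density lipoprotein, was also only just apart, in the other direction, at 9.17, 9.20 and 9.29 with Cel-239b and 9.10, 9.16, 9.16 and 9.14 with miR-709. Its log2 fold change was -0.08 (limma adjusted p = 0.563).

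*Lcat*, which esterifies cholesterol in plasma lipoproteins, read 9.33, 9.59 and 9.48 with Cel-239b and 9.65, 9.66, 9.57 and 9.46 with miR-709. The groups overlapped, with a log2 fold change of 0.12 (limma adjusted p = 0.543). *Npc1l1*, the intestinal sterol uptake protein, was dim, at 5.06, 5.04 and 5.08 against 5.03, 4.96, 5.06 and 5.03. Its log2 fold change was -0.04 (limma adjusted p = 0.791). *Npc2*, the lysosomal partner of *Npc1*, and *Mylip*, a ubiquitin ligase for lipoprotein receptors, had 95% intervals of -0.17 to 0.11 and -0.20 to 0.19.

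The miR-709 replicates differed from each other for the enzymes of the pathway. The mean over the 18 enzymes of the log2 signal minus the Cel-239b mean was 0.034 on array A and -0.031 on array B, but -0.229 on array C and -0.186 on array D. The 3 controls gave 0.018, -0.066 and 0.048. By this mean, arrays A and B were within the range of the controls, and C and D were below it. Single genes of A and B lay outside the controls on both sides. Of the 28 members, 7 were below the lowest control and 11 above the highest on array A. On array B these were 9 and 8, and on C and D 15 and 3 each. Over all genes, 20.7% were below and 25.5% above on array A. A mean over genes chosen with earlier results known carries no p, so these values are a description.

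Gene by gene, 18 of 18 enzymes were lower on array C than on array A, and 18 of 18 were lower on D than on A. Over all genes these shares were 44.5% and 46.4%. Array C was below B in 18 of 18 enzymes and D was below B in 16 of 18, while over all genes these held for 46.0% and 47.6%. Most enzymes were also lower on B than on A, with *Pmvk* and *Ggps1* higher and *Mvd* equal. Among the controls, 13 of 18 enzymes were below the Cel-239b mean on array C, beside 7 on B and 7 on D. Enzymes thus moved together between other arrays too, so such counts alone do not set C and D apart. The number of enzymes below their lowest control was 4 on A, 6 on B and 11 on both C and D, and of all genes between 19.8% and 21.4% were below their lowest control on an array.

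In the stretch from acetyl-CoA to farnesyl diphosphate, the means were 0.019, 0.019, -0.271 and -0.181 on arrays A to D. From squalene to cholesterol the means were 0.044, -0.063, -0.201 and -0.188. SREBP2 and its regulators had means of 0.110, 0.133, -0.035 and 0.000, and the genes of uptake and transport had 0.022, 0.020, 0.057 and 0.007. In uptake and transport, array C thus had the highest mean and array D the lowest. The mean on array C includes *Mylip*, a dim gene that lay 0.2 above its Cel-239b mean on that array. Over all 28 members the means were 0.042, 0.003, -0.140 and -0.118.

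Interferon response genes separated the same arrays. Their mean over 19 measured genes, relative to the control mean, was -0.099 and -0.035 on arrays A and B and 0.912 and 0.904 on arrays C and D, while the controls lay between -0.178 and 0.222. Of these, 18 of 19 were above 0 in log2 fold change, and limma called 0 (4 higher at an unadjusted p under 0.05, 0 by the methods' t-test). At the unadjusted threshold, 9.15% of all genes were higher. The level of the list ran from 7.41 to 7.81 with Cel-239b and from 7.49 to 8.5 with miR-709. *Ch25h*, which makes the oxysterol 25-hydroxycholesterol and is induced by interferon, was dim and did not separate the arrays, at 3.64, 3.55 and 3.54 with Cel-239b and 3.54, 3.78, 3.36 and 3.61 with miR-709. Its limma adjusted p was 0.992. The part of the interferon genes in the lower enzyme means of arrays C and D was not tested.

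**Figure D5:**
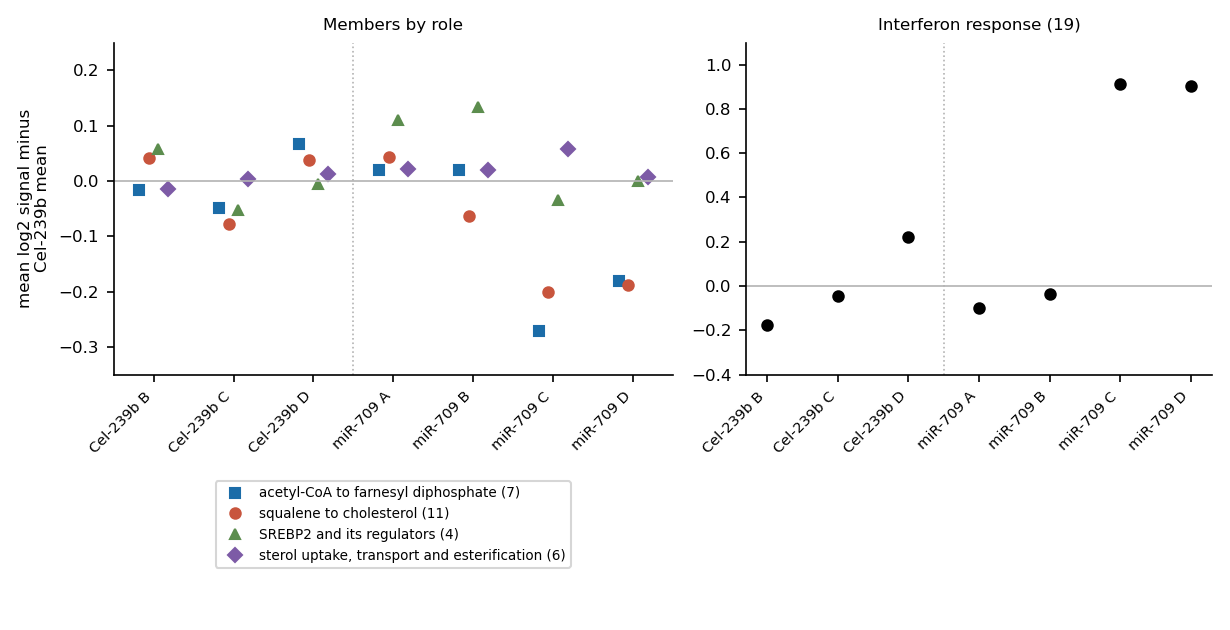
Left, mean over the members of each role group of the log2 signal minus the gene's Cel-239b mean, 1 point per array and role group; right, the same mean over 19 interferon response genes, on a wider axis. The enzyme groups are lowest on miR-709 arrays C and D, and the interferon genes are highest on the same arrays (0.912 and 0.904).

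Markers of the cells were read on the same arrays. All 10 hepatocyte defining genes were bright (mean log2 signal over 6) and 3 were called higher, and the mean of the list ran from 11.85 to 11.92 with Cel-239b and from 12.02 to 12.15 with miR-709. Those called were *Hnf4a*, *Cps1* and *Tat*, with log2 fold changes of 0.57, 0.68 and 0.61, while *Alb*, albumin, was not called. The median log2 fold change of the list was 0.04, so its higher mean rests on the genes called. Over all genes, 1.81% were called higher and 1.47% lower. Of 6 cholangiocyte markers, 2 were bright, and *Krt19* fell by 1.23 on the log2 scale (limma adjusted p = 0.0377, and 0.273 by the methods' t-test). The mean of these markers ran from 5.81 to 5.93 with Cel-239b and from 5.37 to 5.69 with miR-709, lowest on C and D. Of 10 stellate cell and myofibroblast markers, 2 were bright, and the mean was 5.0 to 5.06 against 4.84 to 4.92. *Acta2*, smooth muscle actin, fell by 1.34 on the log2 scale (limma adjusted p = 0.000495), while the median log2 fold change of the list was -0.02. The 10 markers of sinusoidal endothelium and the 10 of Kupffer cells and leukocytes had 0 calls by limma and by the methods' t-test, 2 and 0 at an unadjusted p under 0.05, with 0 and 1 of them bright and low means (4.91 to 5.01 and 4.58 to 4.67 over all arrays). The part of these marker differences in the members' values was not tested.

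Other genes of sterol handling were read from lists written around the pathway. Sterol efflux genes and targets of LXR, the oxysterol receptor, had 2 of 8 called higher and 0 lower. Over all genes, 1.81% were called higher and 1.47% lower. *Abcg5* read 6.08, 6.10 and 6.04 with Cel-239b and 6.55, 6.93, 6.56 and 6.69 with miR-709, and rose by 0.61 on the log2 scale (limma adjusted p = 0.00715). *Abcg8*, its partner in the transporter that moves sterols into bile, read 5.42, 5.49 and 5.28 against 5.92, 5.99, 5.84 and 5.82, and rose by 0.50 (limma adjusted p = 0.00552). In both genes every miR-709 array lay above every control, but the methods' t-test called 0 of the 8 (adjusted p = 0.0978 for *Abcg5* and 0.0613 for *Abcg8*). *Abca1*, which loads cholesterol onto apolipoprotein A-I, had a log2 fold change of -0.39 (limma adjusted p = 0.108).

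Lipogenic targets of SREBP1, the relative of SREBP2 that drives fatty acid synthesis, had 1 of 16 called lower and 0 higher. In this list 11 of 16 were below 0, with a median of -0.07. Of all genes, 1.47% were called lower and 45.1% were below 0. *Fads2*, the delta-6 desaturase, read 10.67, 10.69 and 10.59 with Cel-239b and 10.43, 10.25, 10.07 and 10.04 with miR-709. All miR-709 arrays lay below the controls, with C and D lowest. It fell by 0.45 on the log2 scale (limma adjusted p = 0.0340). *Mid1ip1*, an activator of acetyl-CoA carboxylase, had a value of -0.36 and *Gpam*, the first acyltransferase of glycerolipid synthesis, of 0.23, with limma adjusted p of 0.0862 and 0.0535. The methods' t-test gave the reverse calls in this list, with *Gpam* called higher (adjusted p = 0.0372) and *Fads2* not called (adjusted p = 0.204).

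Of 19 intracellular sterol carriers, 1 was called higher, beside 1.81% of all genes. *Osbpl1a*, an oxysterol binding protein of late endosomes, read 6.83, 6.63 and 6.78 with Cel-239b and 7.20, 7.25, 7.30 and 7.16 with miR-709, and rose by 0.48 on the log2 scale (limma adjusted p = 0.00497, and 0.0498 by the methods' t-test). Every miR-709 array lay above every control. *Osbpl3* and *Scp2*, a carrier of peroxisomes, had log2 fold changes of 0.38 and 0.25 and were not called.

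The remaining lists had 0 calls by limma and by the methods' t-test. At an unadjusted p under 0.05, 9.15% of all genes were higher. Of 7 genes of SREBP processing and sterol-regulated degradation, 1 was higher at an unadjusted p under 0.05. *Mbtps1*, the protease that makes the first cut in SREBP precursors, had a log2 fold change of 0.15, *Erlin1* of 0.10 and *Aup1* of 0.09. Of 11 genes that use isoprenoids after farnesyl diphosphate, 2 were higher at an unadjusted p under 0.05. *Dhdds*, of dolichol synthesis, had a value of 0.25, and the prenyltransferase subunits *Pggt1b* and *Fnta* had 0.20 and 0.12. Of 8 enzymes of oxysterol and bile acid synthesis, 2 were higher at an unadjusted p under 0.05. *Cyp7a1*, the rate-limiting enzyme of bile acid synthesis, had a mean log2 signal of 2.88, below the median of every array, so its log2 fold change of 0.18 (95% interval -0.09 to 0.44) rests on very low signal. *Cyp7b1* and *Cyp39a1*, which hydroxylate oxysterols, had log2 fold changes of 0.26 and 0.25.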

How the data were processed

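The authors deposited 1 log2 signal per probe set and array, made in Partek with RMA per the labels, which subtracts background, makes the signal distribution equal on all arrays and summarises probes into probe sets. Versions are not given in the sources used here. The deposited log2 values ran from 1.92 to 14.08, with array medians of 5.04 to 5.07. Arrays of the same treatment correlated at 0.997 to 0.998 and arrays of different treatments at 0.995 to 0.997.

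Of 28853 probe sets, 21789 had 1 symbol in the platform annotation and were used, 1621 had several and 5443 had none. Gene numbers matched 21698 to current RefSeq symbols. Where a gene had more than 1 probe set (999 genes), the brightest was kept. All 19938 genes were fitted with limma 3.58.1 in R 4.3.3 (2-sided, 2 groups), which was first tested on simulated data. The 1-way ANOVA of the methods is, for 2 groups, called the methods' t-test; 5 genes with no spread were left out of it.

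The members and lists were chosen with earlier results of these data known. Members called, and up to 4 of each role with the largest absolute change, are given on every array. Of each related list, called genes came first, then up to 3 by absolute change, and *Ch25h*. *Nsdhl*, the marker genes named and the second probe sets were added after their values were seen. Some other genes of these lists are not reported here.

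Results were computed again under 21 alternatives. Those of the test were limma-trend, the methods' t-test, array weights and a block for the replicate letter, either fixed or random. Those of the genes were a fit of all probe sets, averaging a gene's probe sets, and a minimum mean log2 signal of 5 or of 6. Those of scaling were median centring, cyclic loess and a second quantile normalization. Arrays were left out singly, and miR-709 C and D or A and B as pairs. Raw scans and 3′ UTRs were not used here, and the genomic sequence used was that of the RefSeq promoter windows. Promoter windows were checked for orientation where opposite windows overlapped (517 of 517 were reverse complements).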

Additional observations from a re-analysis of the deposited data

Results flagged for a closer look

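Dixon's criterion compares the gap between an array and its nearest neighbour with the range of the group. Among the 4 miR-709 arrays it flagged a single array in 2 of 28 members and in 12.3% of all genes. *Sc5d* had a log2 signal of 10.50 on miR-709 array C, below the 10.55 to 10.56 of the others (gap over range 0.833). This gap was small, as the Cel-239b arrays of *Sc5d* ranged over 0.24. *Mylip* had 4.75 on miR-709 array C, above the 4.47 to 4.48 of the others (0.964). Chance flags about 1 in 20 groups. Neither member was called between treatments.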

How the results depend on the processing

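Of 585 values of the 28 members under the 21 alternatives, 535 kept their direction and their side of the threshold. The call of *Hsd17b7* or *Insig2* was lost in 22, *Idi1* became called in 2, and 26 values of 8 members that were not called changed sign. The number of members called lower became 0 with the methods' t-test, with array weights, without miR-709 C and D and without A and B, and it was 0 without each single array. Among genes with a mean log2 signal of 6 or more it became 2, since *Idi1* joined (limma adjusted p = 0.0411). The number called higher became 0 with the methods' t-test, with the fixed replicate block, without C and D and without A and B, and it ranged from 0 to 1 when single arrays were left out.

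The labels do not say whether the letters pair the arrays. Deviations of same-letter arrays correlated by 0.0189, 0.0167 and 0.0462 for B, C and D. Cel-239b B and D correlated best with the miR-709 array of their own letter, and Cel-239b C with miR-709 A (0.0778). Such weak correlations cannot decide whether the arrays were paired. With the letter as a fixed block 1 member was lower, *Idi1* (log2 fold change -0.45, limma adjusted p = 0.0403), and the adjusted p was 0.0645 for *Hsd17b7* and 0.0683 for *Insig2*. With a random block both calls held.

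Changes of sign in log2 fold change were these. Without C and D, values were 0.0533 for *Ebp*, 0.0683 for *Fdps*, 0.0933 for *Lss* and 0.205 for *Nsdhl*. Without A and B they were -0.107 for *Insig1* and 0.06 for *Mylip*. *Ebp* gave 0.00753 with array weights and *Mylip* 0.0167 with the fixed block. With single arrays left out, values ran from -0.103 to 0.0625 for *Ebp*, -0.0533 to 0.0167 for *Fdps*, -0.118 to 0.0525 for *Lss*, -0.0733 to 0.055 for *Mylip*, -0.15 to 0.05 for *Nsdhl*, -0.06 to 0.06 for *Sc5d* and -0.045 to 0.01 for *Scap*. The cause of these changes was not tested. The median over members stayed between -0.0833 and -0.0117. Over all genes limma called 293 lower and 361 higher, the methods' t-test 113 and 113, limma without C and D 92 and 76, and the fixed block 221 and 180. Having 7 arrays limits the precision of every value, and dim members such as *Mylip* and *Npc1l1* have low signal over background.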
